A study of Homo sapiens with 24 samples.

Results

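This comparison asked which messenger RNAs changed when MOLM-13 cells were given L-ascorbic acid (LAA, vitamin C) alone. MOLM-13 is an established line of human acute myeloid leukemia cells that carries the KMT2A-MLLT3 (MLL-AF9) fusion and is known for an internal tandem duplication in the receptor gene FLT3. The 6 libraries described were the 3 labelled MOLM-13 with LAA at 250 µM for 72 h and the 3 labelled MOLM-13 with vehicle (PBS and DMSO), out of 24 in the series. The other 18 held MOLM-13 with 1 µM olaparib, a drug that blocks PARP enzymes, MOLM-13 with both compounds, and THP-1 under the same 4 treatments, with 3 libraries a group. THP-1 is a second human line with the same fusion, described as monocytic. Whether the replicates grew as separate cultures is not in the labels, and the p-values cover no more than the spread among these libraries, which may be technical. All 16160 genes that passed a filter on low counts in the 12 MOLM-13 libraries were compared, and a gene was called when edgeR's quasi-likelihood test gave a Benjamini-Hochberg adjusted p under 0.05. Levels are read counts scaled to the library's size (CPM), and log2 fold changes are LAA minus vehicle with their standard error.

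Ascorbate keeps the iron of a large family of dioxygenases in its active form. The family holds the TET enzymes, which oxidize methylated cytosine in DNA, the Jumonji histone demethylases, the prolyl hydroxylases that mark hypoxia-inducible factor for breakdown, and the collagen hydroxylases. Cells take up ascorbate through the transporters SLC23A1 and SLC23A2 and its oxidized form through the glucose transporters SLC2A1 and SLC2A3. In culture medium ascorbate can also oxidize and give off hydrogen peroxide, so genes of the oxidative stress response are a usual second group to look at. In leukemia cells TET activity is tied to the maturation of blood cells and to the interferon response that silenced repeats can set off when they are demethylated.

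Before the results, the label of the line needs a limit. The libraries labelled MOLM-13 were close to those labelled THP-1, with 540 of 15376 genes called between the 2 sets of olaparib libraries, 228 (1.48%) higher in MOLM-13 and 312 (2.03%) lower. Those 530 of them that were also tested here are called line-marking below. This class rests on olaparib libraries alone, so it can also hold genes whose response to olaparib differs between the lines. The class can likewise miss genes whose level differs between the lines with vehicle. Some genes outside it came near the threshold, such as PLOD3, MFNG and LYZ (edgeR adjusted p = 0.0528, 0.0608 and 0.0855). Across 17089 genes, which are not independent replicates, the median correlation of log2 levels was 0.9898 between a MOLM-13 vehicle and a MOLM-13 LAA library. It was 0.9893 between MOLM-13 vehicle and THP-1 vehicle, and 0.9903 between MOLM-13 LAA and THP-1 vehicle. Within groups it was 0.9927 among the MOLM-13 vehicle libraries and 0.9905 among the MOLM-13 LAA libraries.

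A stricter set held 15 protein-coding genes whose counts came to no more than 12 when the 12 THP-1 libraries were added up and to 20 or more in the 3 libraries of MOLM-13 with olaparib. Their summed level was 31.5, 32.6 and 30.8 CPM in the 3 vehicle libraries and 5.42, 4.8 and 5.79 CPM in the 3 LAA libraries. The LAA group thus stood at 0.169 of the vehicle group. With olaparib the sum was 19.2 ± 1.37 CPM (SD, n = 3), with both compounds 4.09 ± 1.04 CPM, and in THP-1 no group mean was above 0.361 CPM. The 14 members tested all had a negative fold change, 7 of them called, and the exception, SLC26A5, had 1 count with vehicle and 11 with LAA and was not tested. Ratios of LAA to vehicle over the tested members ran from 0.0668 for NFE4 to 0.288 for BPI. Neighbouring genes appear in the set, such as the methylthioadenosine phosphorylase gene MTAP (142 counts with vehicle, 16 with LAA and 0 in THP-1) and KLHL9 (87, 16 and 0), on chromosome 9 of hg38 from 21802543 to 21937651 and from 21329671 to 21335380. In bulk RNA, fewer cells of a type and less RNA per cell cannot be told apart. Results below are therefore given as differences between the libraries labelled MOLM-13 with LAA and those labelled MOLM-13 with vehicle, and a called gene named below was not line-marking unless its class is given. Whether the libraries labelled MOLM-13 hold THP-1 material, or whether that label is right, was not tested, and it bears on every fold change and every likeness between the lines given below.

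**Figure D1:**
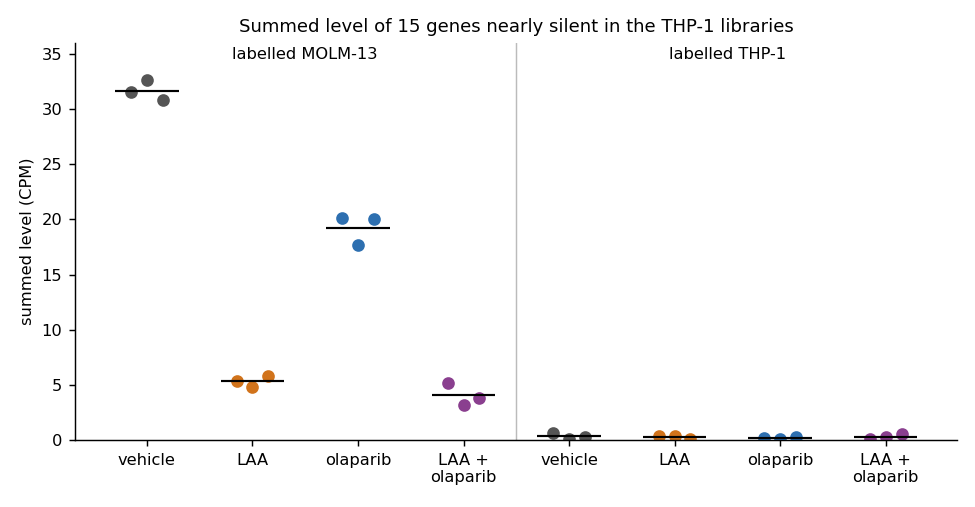
Summed level in CPM of 15 genes nearly silent in the THP-1 libraries. Each point is a library and each line a group mean of 3, by treatment and labelled line. The MOLM-13 LAA libraries lie between 4.8 and 5.79 CPM and the MOLM-13 vehicle libraries between 30.8 and 32.6 CPM.

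Markers of myeloid leukemia lines were present, with 15 of 16 above 1 CPM in the vehicle group and 14 of 16 in the LAA group. Their summed level was 3090 to 3310 CPM with vehicle and 2840 to 3370 CPM with LAA. Of the other marker lists, the 8 T and NK cell genes summed to 10.0 to 12.3 CPM with vehicle and 8.01 to 10.7 with LAA, with CD3E and KLRD1 at 0 in both groups. B cell genes (6) summed to 33.3 to 34.1 and 25.7 to 31.7 CPM. Erythroid and megakaryocyte genes (10) summed to 0.979 to 1.34 and 1.02 to 1.86 CPM with HBB at 0, and epithelial and fibroblast genes (10) to 5.37 to 6.31 and 7.01 to 8.42 CPM with KRT19 and DCN at 0. None of the 10 tested members of these 4 lists was called by edgeR, while 4 of the 16 myeloid genes (LYZ, FLT3, MEIS1 and HOXA9) were lower. Total counts were 20239824 to 25265870 with vehicle and 19212564 to 24001941 with LAA, and mitochondrially encoded genes took 6.67 to 6.74% and 7.01 to 8.14% of them.

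LAA libraries differed from vehicle libraries in 303 genes. Of the 16160 tested, 128 (0.792%) were higher and 175 (1.08%) lower. The changes were mostly small, with a median of 1.42-fold among the higher and 1.6-fold among the lower genes, and 12 higher against 62 lower genes reached 2-fold. The LAA and vehicle libraries did not overlap in 127 of the 128 higher and 175 of the 175 lower genes. A lack of overlap in a called gene named below thus adds little to its call. Line-marking genes made up much of the lower side. Of 228 tested genes that stood higher in MOLM-13 than in THP-1 with olaparib, 51 (22.4%) were lower with LAA and 6 higher. Of 302 that stood lower in MOLM-13, 23 (7.62%) were higher with LAA and 10 lower. Among the 14745 genes with no called line difference, 99 (0.671%) were higher and 108 (0.732%) lower, and only 22 of those lower genes reached 2-fold, against 29 of the genes that stood higher in MOLM-13. Refitted without line-marking genes, 67 genes were higher and 85 lower. Leaving out vehicle replicate 2 gave 113 calls and vehicle replicate 3 gave 140. For LAA replicates 1, 2 and 3 left out in turn the counts were 148, 469 and 188.

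**Figure D2:**
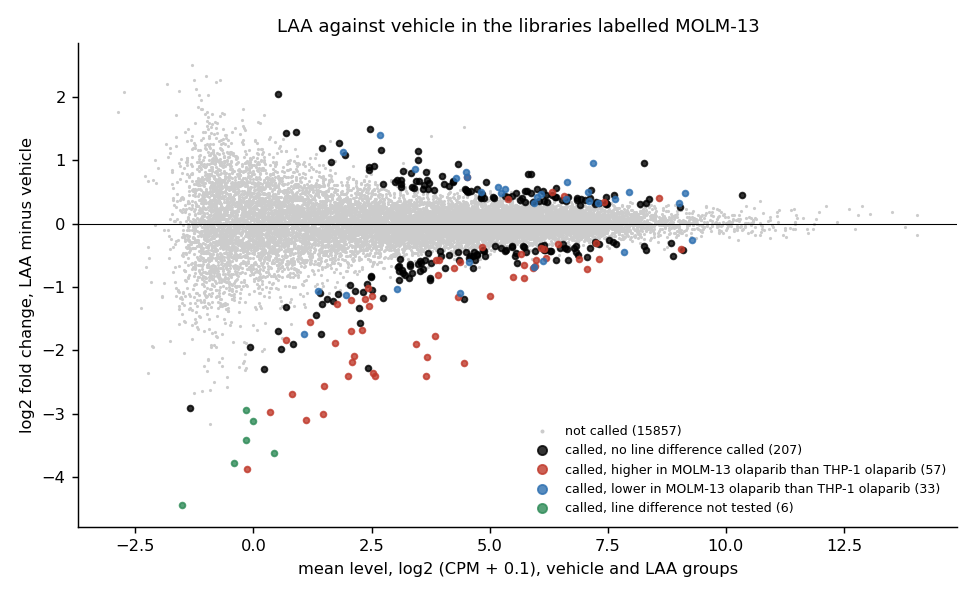
Log2 fold change (LAA minus vehicle) against mean level, log2 (CPM + 0.1), for the 16160 genes tested, with called genes coloured by whether the MOLM-13 and THP-1 olaparib libraries differed. The largest decreases are mostly genes that stood higher in MOLM-13 or had no line test, while called increases are mostly genes with no called line difference.

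No enzyme that writes or removes DNA methylation passed the test. None of the 21 tested genes of this list was called in either direction by edgeR, and their median log2 fold change was 0.01, beside 0.00 over all genes, of which 0.792% were called higher and 1.08% lower. At those shares a list of this size would hold few calls or none, so the count says little of these genes. TET2, the dioxygenase most often mutated in myeloid leukemia, stood at 21.4, 23.0 and 25.5 CPM with vehicle and 21.6, 21.9 and 15.3 CPM with LAA (log2 fold change -0.25 ± 0.14; edgeR adjusted p = 0.431). TET3 was measured at 51.3, 65.2 and 65.4 CPM against 62.5, 65.9 and 39.9 CPM (edgeR adjusted p = 0.772), and TET1 at 6.71, 10.4 and 9.75 against 8.8, 8.31 and 5.22 CPM (edgeR adjusted p = 0.607). In all 3 TET genes the groups overlapped, and LAA replicate 3 was the lowest of the 6 libraries. TDG, the glycosylase that removes the oxidized bases, had a log2 fold change of -0.24 ± 0.09 (edgeR adjusted p = 0.233). For the methyltransferases the values were 0.01 ± 0.07 for DNMT1, 0.18 ± 0.11 for DNMT3A and 0.08 ± 0.15 for DNMT3B. IDH1 and IDH2, which make the 2-oxoglutarate that these dioxygenases use, gave 0.03 ± 0.07 and 0.03 ± 0.08. These are transcript levels and say nothing of enzyme activity.

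Among 41 other tested dioxygenases 2 rose and 1 fell, beside 0.792% higher and 1.08% lower over all genes. The same shares are the background of each list count that follows. The collagen lysyl hydroxylase gene PLOD2 stood at 15.1, 12.9 and 14.2 CPM with vehicle and 21.4, 24.8 and 17.5 CPM with LAA, a 1.51-fold rise with no overlap (edgeR adjusted p = 0.0195). Its call was lost without vehicle replicates 2 or 3 or LAA replicates 1 or 2 (edgeR adjusted p from 0.0696 to 0.125). PLOD3, of the same family, was 1.26-fold higher (edgeR adjusted p = 0.0193), a call lost in 5 of the 6 fits that left out a library, all but the one without LAA replicate 2 (edgeR adjusted p from 0.055 to 0.123). KDM6A, the X-linked histone H3 lysine 27 demethylase, was 7.66-fold lower, at 1.48, 1.37 and 1.38 CPM with vehicle and 0.256, 0.103 and 0.177 CPM with LAA (edgeR adjusted p = 0.00484). Its THP-1 vehicle libraries held 0.0677 CPM on average, and its line difference was not tested. At chromosome X from 44873177 to 45112602 it neighbours FUNDC1 (44523639 to 44543001), a member of the 15-gene set with 45 counts with vehicle and 8 with LAA.

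Of 14 genes for ascorbate uptake and recycling only SLC2A3 was called. This glucose and dehydroascorbate transporter fell 1.76-fold, from 19.8, 20 and 17.4 CPM to 12.2, 10.1 and 10.2 CPM (edgeR adjusted p = 0.00833), and it was line-marking, higher in MOLM-13. Without vehicle replicate 2 its adjusted p was 0.0507. The ascorbate transporter SLC23A2 had a log2 fold change of -0.31 ± 0.11 (edgeR adjusted p = 0.168). Of 40 hypoxia-inducible factor targets 1 rose and 2 fell, with a median of 0.03. EPAS1, which encodes the factor HIF-2 alpha itself, fell 1.5-fold, from 92.0, 101 and 110 CPM to 66.9, 70.7 and 65.0 CPM (edgeR adjusted p = 0.000616). Every LAA library lay below every vehicle library, the call held in all 6 fits that left out a library, and EPAS1 was not line-marking. The glycolysis regulator PFKFB4 was 1.35-fold higher (edgeR adjusted p = 0.0413), which was lost under total-count scaling (edgeR adjusted p = 0.0695) and without vehicle replicates 1 or 2 or LAA replicates 1 or 3 (edgeR adjusted p from 0.129 to 0.216).

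Aldo-keto reductase genes led the rise among antioxidant genes. AKR1C3, which reduces ketones of steroids and prostaglandins, went from 2.19, 2.59 and 3.71 CPM to 7.98, 7.33 and 8.67 CPM (2.81-fold; log2 fold change 1.49 ± 0.25; edgeR adjusted p = 0.00226). The lowest LAA library stood well above the highest vehicle library, and the call held in every setting tried. AKR1C1 was 1.66-fold higher (edgeR adjusted p = 0.00833, and 0.0645 without vehicle replicate 3). AKR1C2 was 1.33-fold higher (edgeR adjusted p = 0.0166), lost without vehicle replicates 2 or 3 or LAA replicate 3 (edgeR adjusted p from 0.0572 to 0.111). AKR1C1 and AKR1C2 were line-marking, higher in MOLM-13, and AKR1C3 was not. These are near-identical copies side by side on chromosome 10 (AKR1C1 from 4963253, AKR1C3 to 5107686), and counting could split reads between them. The catalase gene CAT was 1.2-fold higher (edgeR adjusted p = 0.0499). In all, 4 of 38 genes of this list rose and none fell, with a median of 0.12. HMOX1, the heme oxygenase gene often used as a sign of oxidative stress, stood at 6.4, 4.7 and 5.88 CPM against 6.65, 6.97 and 5.0 CPM (edgeR adjusted p = 0.796), with the groups overlapping. Among 21 iron genes only BLVRA, a biliverdin reductase, was called, 1.33-fold higher (edgeR adjusted p = 0.0205). It was lost without vehicle replicates 2 or 3 or LAA replicates 1 or 3 (edgeR adjusted p from 0.0643 to 0.155).

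Some enzymes of cholesterol synthesis rose with LAA by small amounts. Of 27 tested genes 6 rose and none fell, against 0.792% and 1.08% of all genes, 23 had a positive fold change, and the median was 0.26. None of the 27 was line-marking. LSS, the lanosterol synthase, went from 105, 89.6 and 104 CPM to 132, 129 and 128 CPM (1.3-fold; edgeR adjusted p = 0.01). MVD, the mevalonate diphosphate decarboxylase, went from 74.8, 56.3 and 69.9 CPM to 98.7, 85.0 and 91.3 CPM (1.37-fold; edgeR adjusted p = 0.0168). ACAT2, which makes acetoacetyl-CoA at the head of the pathway, went from 110, 93.8 and 94.7 CPM to 138, 131 and 126 CPM (1.33-fold; edgeR adjusted p = 0.0122). In these genes the groups did not overlap, and vehicle replicate 2 was the lowest library. Without it the calls were lost (edgeR adjusted p 0.091 for LSS, 0.119 for MVD and 0.0938 for ACAT2), and LAA replicate 1, or vehicle replicate 3 for MVD and ACAT2, had the same effect (edgeR adjusted p from 0.0509 to 0.11). The later enzymes EBP and DHCR7 were 1.3-fold and 1.33-fold higher. The regulator SREBF1 gave 0.03 ± 0.08, with overlapping groups.

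The related lists moved the same way in few members. Of 12 fatty acid synthesis genes 2 rose and none fell. ACSS2, which activates acetate to acetyl-CoA, went from 52.0, 51.0 and 53.6 CPM to 75.9, 80.4 and 73.2 CPM (1.47-fold; edgeR adjusted p = 0.00183) and held in every setting. FADS2, the delta-6 desaturase gene, went from 280, 279 and 301 CPM to 372, 347 and 404 CPM (1.31-fold; edgeR adjusted p = 0.0111, and 0.0746 without vehicle replicate 2). Of 12 LXR targets and efflux genes 2 rose. APOE, the apolipoprotein that carries cholesterol out of macrophages, went from 16.2, 12.3 and 12.9 CPM to 21.7, 24.6 and 33.1 CPM (1.92-fold; edgeR adjusted p = 0.00136). All LAA libraries lay above all vehicle libraries. PLTP, the phospholipid transfer protein gene, line-marking and higher in MOLM-13, was 1.41-fold higher (edgeR adjusted p = 0.0117, and 0.0645 without vehicle replicate 3).

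The promoters of MVD and LSS show a feature that many of the sterol genes share, the CCAAT box bound by the factor NF-Y, which works beside SREBP on many genes of the pathway. Shown are the 250 bases before each start in RefSeq (GRCh38.p14), read 5′ to 3′ on the minus strand, with each ATTGG or its reverse complement CCAAT in capitals.
MVD, chr16:88663092-88663341: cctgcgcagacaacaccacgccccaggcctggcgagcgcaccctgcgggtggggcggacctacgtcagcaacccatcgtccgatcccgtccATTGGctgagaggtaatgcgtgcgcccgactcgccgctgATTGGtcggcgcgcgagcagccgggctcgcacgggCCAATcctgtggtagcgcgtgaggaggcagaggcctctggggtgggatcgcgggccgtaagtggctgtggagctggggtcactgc
LSS, chr21:46228775-46229024: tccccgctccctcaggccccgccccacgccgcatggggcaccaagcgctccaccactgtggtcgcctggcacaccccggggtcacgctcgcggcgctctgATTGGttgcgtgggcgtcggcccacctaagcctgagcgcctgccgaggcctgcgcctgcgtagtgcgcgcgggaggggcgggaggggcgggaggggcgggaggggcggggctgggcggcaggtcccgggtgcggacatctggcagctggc
MVD held 3 matches and LSS 1. Of 21 sterol genes matched to a promoter, 15 (71.4%) held ATTGG on either strand, as did all 4 called genes that matched (MVD, LSS, EBP and DHCR7), against 34.8% of 10394 tested protein-coding genes and 33.0% of all 27305 promoters in the table. The match is not particular to sterol genes. ATTGG was also found in 76.9% of 13 MHC class II, 42.9% of 28 antioxidant and 31.4% of 35 interferon-stimulated genes. The core of the sterol regulatory element, spelled TCACNCCAC and searched on both strands, was found in 1 of the 21 and none of those 4, against 0.924% of all tested and 0.875% of all promoters. A short motif occurs often by composition alone, and a match in these windows is a description of the letters.

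The calprotectin genes rose together. S100A8 and S100A9 encode the 2 subunits of this calcium-binding alarmin of neutrophils and monocytes. S100A9 went from 225, 188 and 213 CPM to 408, 363 and 440 CPM (1.93-fold; log2 fold change 0.95 ± 0.09; edgeR adjusted p = 9.36e-06). S100A8 went from 104, 87.7 and 105 CPM to 182, 175 and 215 CPM (1.93-fold; edgeR adjusted p = 2.88e-05). In both, the lowest LAA library was far above the highest vehicle library, and the calls held without any single library. S100A8 was line-marking, lower in MOLM-13, while S100A9 was not. They were the only 2 called of 13 S100 genes, and 12 of the 13 had a positive fold change (median 0.34). S100A4 gave 0.17 ± 0.11 and S100A6 0.26 ± 0.11, neither called.

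Other genes of monocytes and granulocytes moved mostly downward or did not pass the test. Of 36 monocyte and macrophage genes 1 rose (APOE) and 5 fell, with a median of -0.21. LYZ, which encodes lysozyme, fell 1.41-fold, from 125, 144 and 144 CPM to 99.1, 103 and 89.9 CPM (edgeR adjusted p = 0.00189). It was not line-marking, though its line difference came near the threshold (edgeR adjusted p = 0.0855). Each of its LAA values lay below every vehicle value. The scavenger receptor gene CD36, line-marking and lower in MOLM-13, fell 1.53-fold, from 27.7, 29.4 and 28.6 CPM to 19.4, 18.7 and 17.9 CPM (edgeR adjusted p = 0.00189). Both calls held without any single library. The inhibitory Fc receptor gene FCGR2B, which shares reads with a near-identical copy, was 2.52-fold lower (edgeR adjusted p = 0.0121), lost without vehicle replicates 1 or 3 or LAA replicate 3 (edgeR adjusted p from 0.0573 to 0.0654). The integrin subunit ITGB2, line-marking and lower in MOLM-13, and the chemokine receptor CCR2 were called at log2 fold changes of -0.27 and -0.26. CD14, the monocyte endotoxin receptor, was low in both groups, at 1.34, 1.57 and 1.26 CPM against 2.51, 1.03 and 1.81 CPM (edgeR adjusted p = 0.658). ITGAM, the CD11b integrin used to follow myeloid maturation, had a log2 fold change of -0.32 ± 0.09 (edgeR adjusted p = 0.0671).

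Granule and oxidase genes were split. Of 16 granule genes 1 rose, the serine protease CTSG (line-marking, lower in MOLM-13; log2 fold change 0.48; edgeR adjusted p = 0.0253), and 3 fell. Besides LYZ these were the protease inhibitors SERPINB1 and CST7. SERPINB1 fell 1.36-fold (edgeR adjusted p = 0.0164), lost without vehicle replicates 2 or 3 or LAA replicate 1 (edgeR adjusted p from 0.0577 to 0.0828). CST7 fell 3.25-fold, from 7.6, 6.21 and 5.05 CPM to 1.74, 1.91 and 2.12 CPM (edgeR adjusted p = 0.000223), and was line-marking, higher in MOLM-13. ELANE, PRTN3 and AZU1, the most abundant granule proteases, gave 0.09 ± 0.10, 0.17 ± 0.11 and -0.11 ± 0.11, with none called. Of 8 subunit genes of the phagocyte NADPH oxidase 2 fell. CYBB, its catalytic subunit, was 2.18-fold lower (edgeR adjusted p = 0.00893, and 0.0766 without vehicle replicate 2). NCF1, which has near-identical copies, was 1.79-fold lower, from 65.7, 52.3 and 56.1 CPM to 32.8, 26.7 and 37.5 CPM (edgeR adjusted p = 0.000616). Both oxidase genes were line-marking, CYBB lower and NCF1 higher in MOLM-13.

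Lineage regulators held 1 call. Of 28 myeloid transcription factors 18 had a negative and 10 a positive fold change, with a median of -0.13. Only FOS was called, 1.61-fold lower, from 76.1, 78.9 and 70.3 CPM to 50.8, 48.9 and 39.9 CPM (edgeR adjusted p = 0.000616, line-marking, lower in MOLM-13). SPI1, the PU.1 factor of myeloid cells, stood at 340, 325 and 335 CPM against 339, 304 and 407 CPM (edgeR adjusted p = 0.771), and CEBPA had a log2 fold change of -0.21 ± 0.14 (edgeR adjusted p = 0.53). MYC gave -0.24 ± 0.07 (edgeR adjusted p = 0.0841).

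Genes of the KMT2A fusion program, the HOXA cluster and its partners that keep these leukemias growing, were lower in 4 of 31 and higher in none, with 26 negative fold changes and a median of -0.22. FLT3, the cytokine receptor gene, stood at 37.8, 36.1 and 34.0 CPM with vehicle and 8.85, 8.73 and 5.93 CPM with LAA (log2 fold change -2.20 ± 0.14; edgeR adjusted p = 2.68e-08). Its level was 9.24 CPM on average in the THP-1 vehicle libraries, and the MOLM-13 LAA values lay below it. In the THP-1 LAA libraries the average was 6.69 CPM, and the MOLM-13 LAA average of 7.83 CPM lay above that. MEIS1, the HOX partner, stood at 3.4, 4.75 and 2.92 CPM against 0.307, 0.568 and 0.398 CPM (edgeR adjusted p = 0.000301), with 0.127 CPM in THP-1 vehicle. RUNX2 was 1.39-fold lower (edgeR adjusted p = 0.00976), lost without vehicle replicate 2 or LAA replicate 1 (edgeR adjusted p = 0.0749 and 0.06). These 3 were line-marking, higher in MOLM-13. HOXA9, a central gene of the program and not line-marking, went from 62.3, 57.8 and 54.8 CPM to 48.4, 48.0 and 41.1 CPM, 1.27-fold lower with no overlap (edgeR adjusted p = 0.0498). That call was lost under total-count scaling (edgeR adjusted p = 0.0695). It was also lost in 5 of the 6 fits that left out a library (edgeR adjusted p from 0.0828 to 0.17), LAA replicate 2 being the exception. In all it held in 4 of 15 alternatives. The other losses included the fit of only the libraries compared (edgeR adjusted p = 0.138) and that without line-marking genes (edgeR adjusted p = 0.0669). HOXA10 gave -0.04 ± 0.09 and was not called.

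Other large decreases, among protein-coding genes with a mean log2 CPM of at least 1, included line-marking genes whose LAA levels also lay near those of THP-1. EPB41L3, a membrane skeleton protein gene, stood at 20, 23.6 and 19 CPM against 4.35, 4.54 and 3.01 CPM. Its mean was 4.98 CPM in THP-1 vehicle and 3.94 CPM in THP-1 LAA. PRSS57, a serine protease gene of myeloid granules, stood at 21.3, 21.1 and 19.4 CPM against 5.01, 4.6 and 4.69 CPM. Its mean was 2.63 CPM in THP-1 vehicle and 1.75 CPM in THP-1 LAA. In both genes the MOLM-13 LAA libraries were nearer to the THP-1 than to the MOLM-13 vehicle level. With FLT3, EPB41L3 and PRSS57, the 10 largest decreases at that level were DLX5, EMD, ALDH1A3, RAB34, RAP2A, MFNG and CCND2, the last 7 between 4.56-fold and 8.0-fold lower, and 9 of the 10 were line-marking. The part that the fall of the 15-gene set has in these results was not tested.

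Antigen presentation genes gave 1 clear increase. HLA-DRA, the alpha chain of HLA-DR, went from 6.17, 7.49 and 6.95 CPM to 14, 15.6 and 16.1 CPM (2.22-fold; log2 fold change 1.15 ± 0.16; edgeR adjusted p = 0.000616). The groups were far apart, the call held in every setting, and the gene was not line-marking. It was the only call among 15 MHC class II genes, of which 12 had a positive fold change (median 0.26). CD74, the invariant chain, gave 0.26 ± 0.10 and the class II regulator CIITA 0.30 ± 0.27, neither called. Of 18 class I genes 2 fell and none rose. ERAP2, a peptidase that trims peptides for class I, fell 2.12-fold (edgeR adjusted p = 0.00312). It went from 7.02, 6.56 and 6.24 CPM to 3.07, 2.79 and 3.45 CPM, and its mean was 3.17 CPM in THP-1 vehicle. HLA-E was 1.24-fold lower (edgeR adjusted p = 0.0455), a call lost in 5 of the 6 fits that left out a library, the exception being LAA replicate 3 (edgeR adjusted p from 0.103 to 0.144).

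Interferon-stimulated genes showed a partial rise. Of 46 tested, 5 rose and 1 fell, 34 had a positive fold change, and the median was 0.17. Of these 46 genes 40 were line-marking, among them all 6 called, each of which stood lower in MOLM-13 than in THP-1 with olaparib. IFITM1, which encodes a membrane protein that blocks virus entry, went from 13.2, 15.8 and 14.7 CPM to 21.2, 22.1 and 28.7 CPM (1.65-fold; edgeR adjusted p = 0.00739) and held without any single library. IFITM3 went from 73.9, 76.5 and 80.8 CPM to 111, 103 and 149 CPM (1.57-fold; edgeR adjusted p = 0.0129), lost without vehicle replicates 1 or 2 or LAA replicate 3 (edgeR adjusted p from 0.0596 to 0.0651). These 2 genes are similar copies beside each other. IFI27 went from 1.79, 2.64 and 5.84 CPM to 8.29, 6.92 and 12.2 CPM (2.64-fold; edgeR adjusted p = 0.0215). OASL, an antiviral protein related to the oligoadenylate synthases, went from 1.48, 2.15 and 3.08 CPM to 4.86, 4.85 and 5.13 CPM (2.2-fold; edgeR adjusted p = 0.0171). Without vehicle replicates 1 or 2 or LAA replicates 1 or 3 neither of these was called (edgeR adjusted p from 0.0505 to 0.126). IFI6 was 1.45-fold higher (edgeR adjusted p = 0.047) although its groups overlapped, and ISG15, the ubiquitin-like modifier, missed the threshold at a log2 fold change of 0.51 ± 0.14 (edgeR adjusted p = 0.0629). TRIM22 went the other way, from 8.59, 12.4 and 11.7 CPM to 5.22, 4.91 and 5.79 CPM (2.04-fold lower; edgeR adjusted p = 0.00439).

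The promoters of the interferon genes that rose carry the letters of the interferon-stimulated response element, the site of the STAT and IRF factors. IFI27 and IFITM3 are shown with the 250 bases before the start (RefSeq, GRCh38.p14), 5′ to 3′ on each gene's strand, plus for IFI27 and minus for IFITM3. Capitals mark GAAA, any 2 bases and GAAA again, or the reverse complement.
IFI27, chr14:94110486-94110735: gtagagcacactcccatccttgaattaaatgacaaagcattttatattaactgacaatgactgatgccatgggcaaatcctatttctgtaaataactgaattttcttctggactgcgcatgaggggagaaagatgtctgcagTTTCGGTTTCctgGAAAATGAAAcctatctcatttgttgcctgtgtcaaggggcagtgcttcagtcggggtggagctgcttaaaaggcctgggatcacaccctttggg
IFITM3, chr11:320861-321110: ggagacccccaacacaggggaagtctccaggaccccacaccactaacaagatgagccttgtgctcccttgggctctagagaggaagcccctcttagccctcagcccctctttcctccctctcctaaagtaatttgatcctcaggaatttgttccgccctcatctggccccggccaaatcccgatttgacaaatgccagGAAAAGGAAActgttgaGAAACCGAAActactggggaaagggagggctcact
Both held 2 matches, in IFI27 a few bases apart in opposite orientation. All 4 of the genes that rose and had a promoter in the table (IFI6, IFI27, IFITM1 and IFITM3) held the motif, as did 19 of the 35 interferon-stimulated genes matched (54.3%), against 2.45% of 10394 tested protein-coding genes and 3.07% of all 27305 promoters. Over the 102 matched genes called higher the share was 5.88%, and over the 120 called lower 5.83%. Without line-marking genes it was 1.28% of 78 called higher and 2.63% of 76 called lower, beside the 2.45% over tested genes.

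Inflammatory, stress and death genes changed in few members. Of 27 NF-kB and inflammatory genes none rose and 2 fell. TNF, the inflammatory cytokine gene, stood at 34.9, 29.2 and 27.9 CPM with vehicle and 14, 13.3 and 12.7 CPM with LAA (2.3-fold lower; log2 fold change -1.20 ± 0.12; edgeR adjusted p = 8.02e-06). It was not line-marking, its groups were far apart, and the call held in every setting. The other, IER3, had no line test and was near the detection limit at 0.581, 0.587 and 0.276 CPM against 0, 0.0516 and 0 CPM, and lost its call in 5 of the 6 fits that left out a library, all but that without LAA replicate 2 (edgeR adjusted p from 0.055 to 0.144). Of 36 genes of the unfolded protein and integrated stress responses only TRIB3, a pseudokinase gene induced by ATF4, rose. It went from 55.7, 54.5 and 54.4 CPM to 77.4, 71.2 and 72.3 CPM (1.34-fold; edgeR adjusted p = 0.00434; line-marking, lower in MOLM-13).

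The death receptor gene FAS fell 2.29-fold (edgeR adjusted p = 0.0195, lost without vehicle replicates 1 or 3 or LAA replicate 3, edgeR adjusted p from 0.0689 to 0.0969). CDKN1A, the p21 gene, stood at 149, 143 and 142 CPM against 143, 142 and 143 CPM (edgeR adjusted p = 0.926). Among 30 apoptosis genes BOK was 1.5-fold higher and APAF1 and FAS lower. BOK lost its call without vehicle replicates 2 or 3 or LAA replicate 1 (edgeR adjusted p from 0.115 to 0.151). APAF1, the apoptosome scaffold, at 1.31-fold lower, lost it under total-count scaling (edgeR adjusted p = 0.0557) and in 5 of the 6 such fits, all but that without LAA replicate 2 (edgeR adjusted p from 0.06 to 0.104).

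Lists of DNA repair and growth held 1 call, where the shares over all genes (0.792% higher and 1.08% lower) would give only a few. None of 37 homologous recombination and Fanconi genes, 27 base excision and poly-ADP-ribosylation genes, 40 mitosis genes, 48 ribosomal protein genes or 13 mitochondrially encoded genes was called by edgeR. Of 40 replication genes 1 fell and none rose. Median log2 fold changes were -0.02 for recombination, 0.04 for base excision, 0.05 for replication, 0.08 for mitosis and -0.02 for ribosomal proteins. All 13 mitochondrial genes had a positive fold change, with a median of 0.22, and 11 of them were line-marking. Their share of counts with olaparib was 8.63, 8.22 and 11% in MOLM-13 and 7.12, 6.68 and 6.63% in THP-1. With vehicle that share was 6.72, 6.74 and 6.67% in MOLM-13 and 7.49, 6.98 and 6.81% in THP-1. LAA replicate 3 also had the highest mitochondrial share of counts of the 6 MOLM-13 vehicle and LAA libraries, 8.14%. Of 30 germline genes that DNA methylation usually silences only 5 were expressed enough to test, and PRAME, already at 113, 103 and 101 CPM with vehicle, was 1.31-fold higher (edgeR adjusted p = 0.0212). That call was lost without vehicle replicates 2 or 3 or LAA replicates 1 or 3 (edgeR adjusted p from 0.0508 to 0.118).

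**Figure D3:**
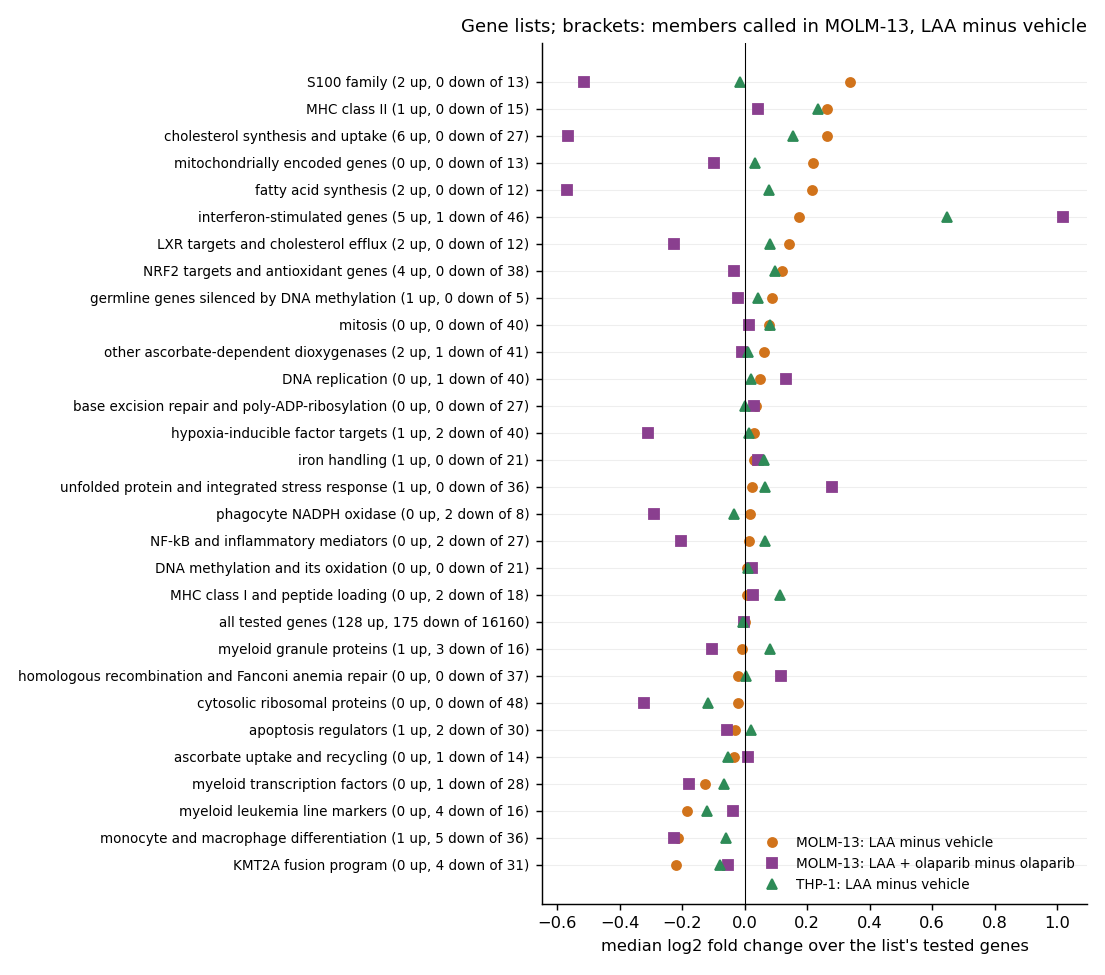
Median log2 fold change over the tested members of the gene lists, for LAA minus vehicle in MOLM-13, LAA + olaparib minus olaparib in MOLM-13, and LAA minus vehicle in THP-1, ordered by the first. Brackets give the members called in the first comparison, such as 6 up and 0 down of 27 for cholesterol synthesis, whose median was 0.26 without and -0.57 with olaparib.

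Outside the lists, the largest increases among protein-coding genes that were not line-marking and had a mean log2 CPM of at least 1 were in genes of low level. INHBE, a subunit gene of the activin hormones, went from 2.01, 2.1 and 1.89 CPM to 5.47, 4.44 and 4.55 CPM (2.41-fold; edgeR adjusted p = 0.0051). RTN4R, the Nogo receptor gene, went from 7.38, 6.31 and 8.57 CPM to 16.5, 10.8 and 17.3 CPM (2.0-fold; edgeR adjusted p = 0.00434). Both calls held without any single library. ULBP2, a ligand gene of the natural killer receptor NKG2D, was 2.24-fold higher (edgeR adjusted p = 0.00937), lost without vehicle replicate 3 or LAA replicate 1 (edgeR adjusted p = 0.0645 and 0.0587). The glutamate receptor gene GRIA3 was 2.27-fold higher (edgeR adjusted p = 0.0174) and lost its call without vehicle replicates 1 or 3 (edgeR adjusted p = 0.0621 and 0.0955). CSGALNACT1, a chondroitin synthesis gene, and BEX4 were 2.11-fold and 1.96-fold higher, but each call was lost in 4 of the 6 fits that left out a library, CSGALNACT1 without any vehicle library or LAA replicate 3 and BEX4 without vehicle replicates 2 or 3 or LAA replicates 1 or 3 (edgeR adjusted p from 0.0749 to 0.155).

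On the lower side, MFNG, a glycosyltransferase gene that modifies Notch receptors, had the largest decrease without a called line difference at that same minimum level. It stood at 10.6, 6.85 and 9.04 CPM against 1.59, 1.5 and 2.3 CPM (4.87-fold lower; log2 fold change -2.28 ± 0.26; edgeR adjusted p = 4.01e-05). Its call held without any single library. TGFA, the growth factor gene, was 2.71-fold lower, TRIM72 2.32-fold and STOX2 2.41-fold. LPAR3 was 2.15-fold and the coreceptor gene NRP1 2.27-fold lower (edgeR adjusted p from 0.00718 to 0.0401 over these genes). THP-1 vehicle means were 1.13 CPM for TGFA, 1.39 for STOX2 and 1.39 for LPAR3. In MOLM-13 these genes averaged 3.51, 3.73 and 4.58 CPM with vehicle and 1.29, 1.55 and 2.12 CPM with LAA. For MFNG, TRIM72 and NRP1 the THP-1 vehicle means were 7.3, 2.92 and 7.9 CPM. Those lay above the MOLM-13 LAA means of 1.79, 1.87 and 4.03 CPM. NRP1 lost its call with limma on log2 FPKM plus 1 and plus 0.1 (limma adjusted p = 0.0644 and 0.06). Among the fits that left out a library, it lost its call only without vehicle replicate 3 (edgeR adjusted p = 0.0529). TRIM72 lost it without vehicle replicates 1 or 3 or LAA replicate 1, TGFA without vehicle replicates 1 or 2 or LAA replicates 1 or 3, STOX2 without vehicle replicates 2 or 3 or LAA replicates 1 or 3, and LPAR3 in all such fits except that without LAA replicate 1 (edgeR adjusted p from 0.06 to 0.193).

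**Figure D4:**
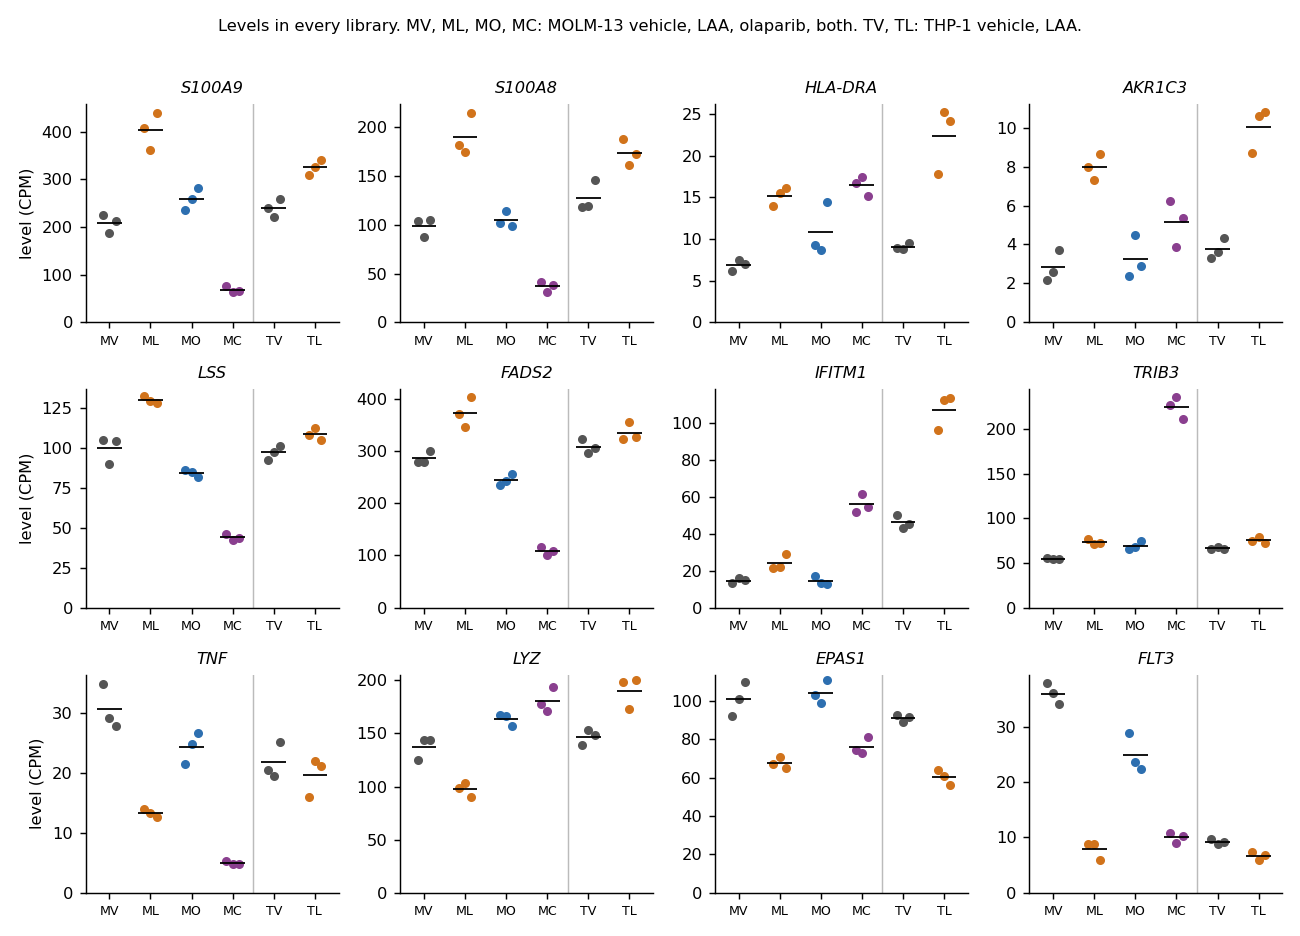
Level in CPM of 12 genes in every library of 6 groups, with group means as lines, each axis starting at 0. S100A9 and LSS are highest in the MOLM-13 LAA libraries and lowest in those with both compounds, HLA-DRA and AKR1C3 are higher with LAA in both lines, and FLT3 with LAA in MOLM-13 lies near its THP-1 level.

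The addition of LAA was measured in other libraries on 2 further occasions, neither of which shares a library with the comparison above: on top of olaparib in MOLM-13, and alone in THP-1. In THP-1, 153 (0.937%) of 16331 genes were higher and 90 (0.551%) lower, 243 in all, which became 152, 114 or 148 without THP-1 vehicle replicate 1, 2 or 3 and 129 without THP-1 LAA replicate 3. Of the 128 genes higher with LAA in MOLM-13, 123 (96.1%) had a positive fold change in THP-1, 33 were called higher there and none lower. Those 33 are 25.8% of the MOLM-13 genes and 21.6% of the THP-1 genes. Among the 99 that were not line-marking, 94 (94.9%) had the same sign and 21 were called. Of the 175 lower genes 162 were tested in THP-1, where 130 (80.2%) had the same sign, 26 were called lower, and LYZ and TRIM22 were called higher. Most increases thus had the same sign in both lines. The tested line difference was called for 24 (0.14%) of 17089 genes, 22 of them with a THP-1 effect above that of MOLM-13.

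Several of the increases described were of like size in THP-1. HLA-DRA went from 9.1 to 22.4 CPM there (group means; log2 fold change 1.30; edgeR adjusted p = 1.21e-07), AKR1C3 from 3.75 to 10.0 CPM (1.42; edgeR adjusted p = 0.00017) and APOE from 14.6 to 25.8 CPM (0.82; edgeR adjusted p = 1.53e-05). EPAS1 fell by 0.59 and FOS by 0.55 on the log2 scale, both called (edgeR adjusted p = 2.91e-05 and 0.0027). The S100 pair rose by 0.43 for S100A9 and 0.45 for S100A8, and the difference between lines was not called (edgeR adjusted p = 0.137 and 0.366). Interferon-stimulated genes rose in 38 of 46 in THP-1, with a median of 0.65, against 5 of 46 and 0.17 in MOLM-13. Of the 6 members called in MOLM-13, TRIM22 had a called difference between lines, 1.67 higher in THP-1 on the log2 scale (edgeR adjusted p = 1.53e-05). The decreases of FLT3 and EPB41L3 were not called in THP-1, where log2 fold changes were -0.47 and -0.33, and the line difference was called for both (edgeR adjusted p = 1.06e-05 and 1.27e-05). TNF gave -0.15 in THP-1 with a called line difference (edgeR adjusted p = 0.00262).

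With LAA on top of olaparib in MOLM-13, more genes were called and several of the increases went the other way. There 467 (2.89%) of 16160 genes were higher and 741 (4.59%) lower, a split that was 771 and 529 under total-count scaling. The total of 1208 became 624 and 632 without replicate 2 or 3 of the group with both compounds. Of the 128 genes higher with LAA alone, 83 (64.8%) kept a positive sign, 23 were called higher and 12 called lower. Of the 175 lower with LAA alone, 151 (86.3%) kept a negative sign, 93 were called lower and none higher. The difference between the effects with and without olaparib was called for 329 (2.04%) genes, 115 positive and 214 negative, or 169 and 159 under total-count scaling.

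The genes that reversed included the S100 pair and the lipid enzymes. S100A9 stood at 259 ± 23.4 CPM with olaparib and 68.2 ± 6.34 CPM with both (SD, n = 3), and the effects with and without olaparib differed by -2.88 on the log2 scale (edgeR adjusted p = 2.46e-10). For LSS the log2 fold change of LAA was 0.38 alone and -0.94 on top of olaparib, and for FADS2 0.39 and -1.18. In the cholesterol list 20 of 27 genes fell with LAA on top of olaparib and none rose, with a median of -0.57. Interferon-stimulated genes were mostly higher, 36 of 46 and 1 lower and a median of 1.02, and TRIB3 reached 225 CPM on average. Called in the same direction in all 3 comparisons were 13 genes that rose, HLA-DRA, APOE, LGALS3BP, MAP1B, IGFBP4, DNAJA4, TCF23, GCH1, IFITM1, IFITM3, OASL, IFI27 and IFI6. Of these 7 were not line-marking. Another 22, of which 11 were not line-marking, fell in all 3, among them EPAS1, FOS, CD36, TIMP3, RET, CFD and CXXC5, the last a CpG-binding regulator.

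**Figure D5:**
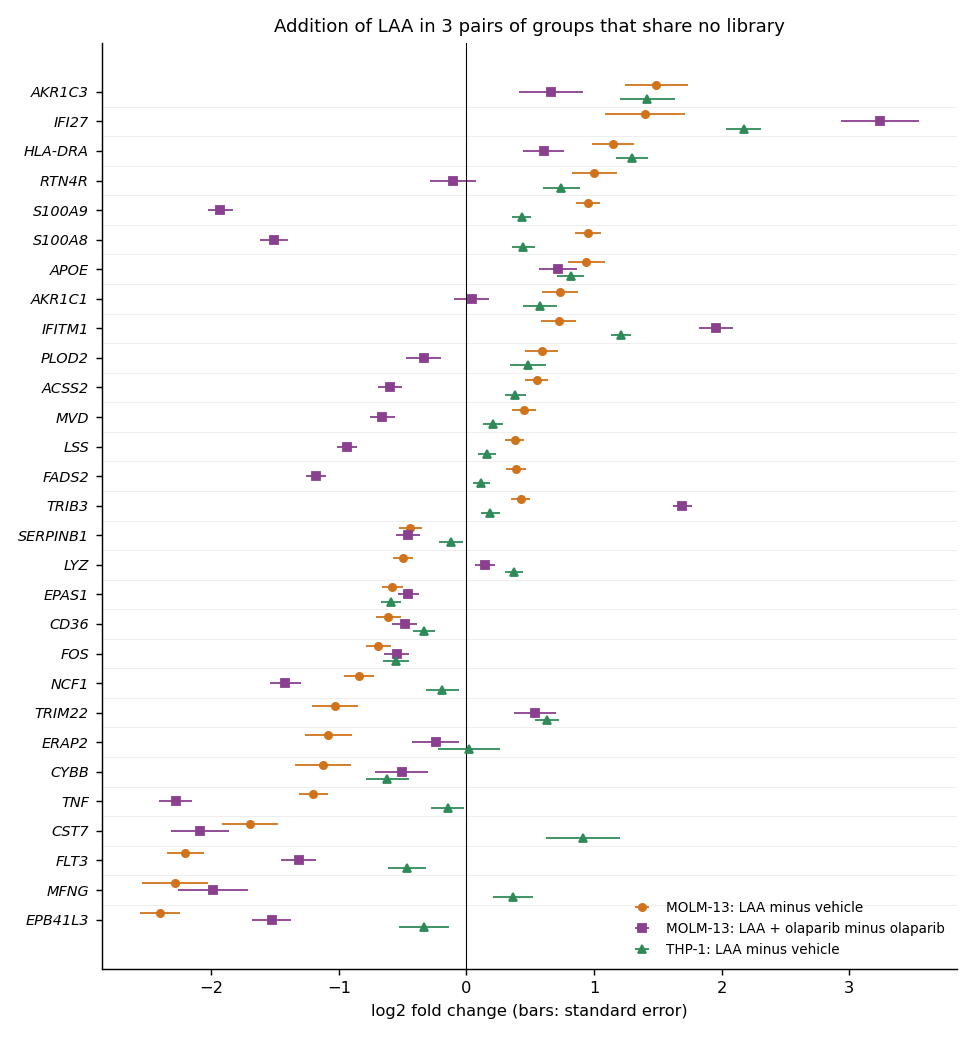
Log2 fold change with standard error for 29 genes when LAA was added in 3 pairs of groups that share no library. Genes such as HLA-DRA and APOE lie to the right of 0 in all 3, EPAS1 and FOS to the left in all 3, and S100A9, LSS and FADS2 lie right with LAA alone and left with LAA on top of olaparib.

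Promoters of the called genes were also described by their content of CG, the dinucleotide that carries DNA methylation. In the 250 bases before the start the median number of CG was 17 for the 102 matched genes called higher (quartiles 5 and 26), 19.5 for the 120 called lower and 21 for 10172 not called (quartiles 14 and 28). Without line-marking genes the medians were 19.5 higher and 20 lower. No test of these medians was made.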

How the data were processed

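Poly-A RNA of 24 libraries was prepared with a kit that does not mark strand, per the labels' protocols, so overlapping and antisense genes cannot be told apart. The submitters' processing notes name HISAT2, SAMtools, DESeq2 and hg38, with versions not given in the sources used here. Both tables come from the authors: they deposited raw read counts for 58735 genes and, in a second table, FPKM values. Counts were fitted with edgeR 4.0.16 in R 4.3.3 over the 12 MOLM-13 libraries (filterByExpr with a minimum count of 10, TMM scaling, quasi-likelihood test), THP-1 and line contrasts likewise within their libraries, with Benjamini-Hochberg adjustment at 0.05 over all genes tested. CPM levels use TMM factors over 24 libraries. The code was tested on simulated counts. Alternatives were DESeq2 1.42.0, limma 3.58.1 on log2 of the deposited FPKM plus 1 or 0.1, total-count scaling, no filter, only the libraries compared, a replicate block, no line-marking genes and each library left out.

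The gene lists and named genes were chosen with earlier results of these data known. Named were, among called protein-coding genes whose LAA and vehicle libraries did not overlap and whose mean log2 CPM was 1 or more, the 10 largest increases and decreases, the same among genes not line-marking, up to 3 called genes per list with the smallest adjusted p, and a set of regulators and markers whatever their values. Other genes named as list members or in the 15-gene set were chosen after their values were seen. Promoter sequences came from a RefSeq table matched by symbol. A few genes counted in the lists are not reported here by name.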

Additional observations from a re-analysis of the deposited data

Results flagged for a closer look

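Named genes are given here where the effect of LAA differed between settings by edgeR's test of the difference itself, as log2 values with no explanation weighed.

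The effect of LAA on top of olaparib minus its effect alone, in MOLM-13, was negative for S100A9 (-2.88), S100A8 (-2.46), FCGR2B (-2.09), FADS2 (-1.57), GRIA3 (-1.42) and ULBP2 (-1.42). It was also negative for LSS (-1.32), ACSS2 (-1.15), MVD (-1.11), RTN4R (-1.11), TNF (-1.08), ACAT2 (-0.93), PLOD2 (-0.93), PFKFB4 (-0.84) and AKR1C2 (-0.61). It was positive for STOX2 (1.93), IFI27 (1.84), TRIM22 (1.57), TRIB3 (1.27), IFITM1 (1.23), FLT3 (0.89), EPB41L3 (0.87) and LYZ (0.65). Over all genes the calls split into 115 positive and 214 negative, or 169 and 159 under total-count scaling.

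The effect of LAA in THP-1 minus that in MOLM-13 was positive for MFNG (2.65), CST7 (2.62), EPB41L3 (2.07), RAP2A (1.78), FLT3 (1.74), TRIM22 (1.67), PRSS57 (1.53), TNF (1.06) and LYZ (0.87).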

How the results depend on the processing

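Of the 69 named genes called, all kept their direction under every alternative that gave a value. Of them 32 were called under each alternative and 33 with each single library left out. Limma on log2 FPKM plus 1 ended 15 of these calls and plus 0.1 ended 17. With only the libraries compared 14 of 68 were lost. Losses given by gene above cover total-count scaling and single libraries left out, with other settings only for HOXA9 and NRP1. For LAA alone in MOLM-13 (303 calls, 128 higher), DESeq2 called 577 (272 higher, 305 lower), no filter 502 (215 and 287), only the libraries compared 199 (73 higher) and limma on log2 FPKM plus 0.1 195 (73 higher). Limma on FPKM plus 1 gave 83 higher, and removing line-marking genes gave 152 (67 and 85). Removing every gene with an unadjusted line p under 0.05, chosen after seeing the data, left 94 (42 and 52). Leaving out 1 library gave 113 to 469 calls (34 to 225 higher, 79 to 244 lower).

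On top of olaparib that added setting gave 577 calls and leaving out a library 624 to 918. In THP-1 the count was 387 with DESeq2, 383 with no filter, 380 with only the libraries compared, 134 and 132 with limma on FPKM plus 1 and 0.1, 124 without line-marking genes, 79 in the added setting and 114 to 209 with a library left out. Line-marking genes numbered 906 with no filter, 257 and 268 with limma on FPKM plus 1 and 0.1, and 232 to 602 with a library left out. The difference by olaparib gave 550 with DESeq2, 555 with no filter, 156 in the added setting and 206 to 496 with a library left out. The difference by line gave 45 with DESeq2, 102 with no filter, 45 with limma on FPKM plus 1, 4 without line-marking genes, 1 in the added setting and 13 to 22 with a library left out. Settings that remove genes or samples test fewer of them, and for the others the cause was not tested.

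Uncalled values that changed sign were DNMT1 with total-count scaling (-0.010) and, over the fits with a library left out, TET3 (-0.246 to 0.082), DNMT1 (-0.050 to 0.051), IDH1 (-0.012 to 0.059), IDH2 (-0.069 to 0.086), SPI1 (-0.053 to 0.163) and CDKN1A (-0.031 to 0.002).

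Same-numbered vehicle and LAA libraries of MOLM-13 correlated at -0.12, 0.187 and -0.0897 in their deviations from the group means, so the samples share only a number, and 1 of 3 correlated best with its own number. With the replicate block the calls were 308 for LAA alone, 1227 on top of olaparib, 205 in THP-1, 293 for line-marking genes, 347 for the difference by olaparib and 21 for that by line. Among named genes the block ended 1 call, that of the PFKFB4 log2 fold change (edgeR adjusted p = 0.0551).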
